A study of Mus musculus with 1024 samples.

Results

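Smooth muscle-like cells of the mouse aorta were 70 of the 1024 wells of this single-cell series. They were chosen by values measured in the same wells, among those that carry no Endothelial label and were sorted as Cd31-Cd45-. A well was taken when it held at least 20000 gene counts and 500 detected genes, no count of Cdh5, and a higher mean of Acta2, Myh11, Tagln and Cnn1 than of the fibroblast genes Dcn, Lum, Col1a1 and Col1a2, where each mean is over ln(1 + counts per 10000). Of 128 Cd31- wells, 108 passed the filters on counts and genes, 3 of these held a Cdh5 count and 35 had the higher fibroblast mean, so 64.8% of the wells that passed were taken (exact 95% binomial interval 55.0 to 73.8%).

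The series holds Smart-seq2 libraries, full-length cDNA of 1 cell per well, from aortas of 3-month-old mice of a strain labelled Amotl2flow/flow / Cdh5-RREert /ROSA26-EYFP. WT mice (amotl2 ec+/ec+) were compared with KO mice (amotl2 ec-/ec-), in which tamoxifen-induced Cre under the endothelial Cdh5 promoter deletes amotl2 in endothelial cells (ECs), so that the cells described here were not the cells targeted by the deletion. Aortas were digested with collagenase, dispase and DNase, Cd45+ cells were depleted on beads, and viable single cells were sorted either as Cd31+Cd45-, the gate labelled Endothelial, or as Cd31-Cd45-. The labels name 2 sorts for each genotype. Sort 1 of WT and of KO lay on plates of their own and sort 2 of both genotypes shared a plate, so in sort 1 the genotype and the plate cannot be told apart. The mice behind a well are not named in the labels, the study used more mice than sorts for each genotype, and the sum of the cells of 1 genotype and 1 sort therefore served as 1 replicate. Below, values of the sums are given in the order WT sort 1, WT sort 2, KO sort 1 and KO sort 2. These sums held 16, 10, 31 and 13 smooth muscle-like cells with 2477234, 903697, 7251739 and 814086 gene counts. The 676 Endothelial wells that passed the same filters were summed in the same way, and the 4 sums held 235, 50, 302 and 89 wells.

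Vascular smooth muscle cells form the media of the aorta, where they contract and relax to set vessel tone and lay down elastic fibres and collagens. Their contractile genes are driven by the serum response factor Srf together with its cofactor myocardin (Myocd), which bind a short DNA element called the CArG box. When smooth muscle cells are stressed or diseased they can lose contractile proteins and turn on matrix and inflammatory genes, a state known as phenotypic modulation.

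The chosen cells stood well apart from the other Cd31- wells on the measure that chose them. The smooth muscle mean exceeded the fibroblast mean by 2.216 to 4.33 with a median of 3.32, and in the 35 wells left out for their fibroblast mean the difference lay between -5.002 and -2.11. Just inside the limit lay 3 cells at 2.216, 2.42 and 2.46, and just outside it lay 3 wells at -2.11, -2.31 and -2.60. No well lay between, so a margin of at least 1 gave the same 70 cells.

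**Figure D1:**
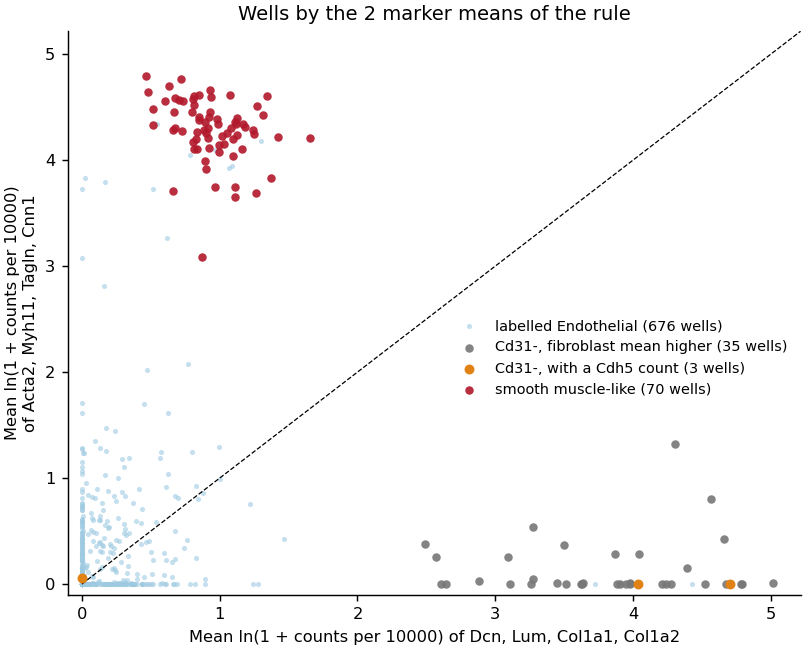
Each point is a well that passed the filters, plotted by its mean ln(1 + counts per 10000) of the 4 fibroblast genes (horizontal) and of the 4 smooth muscle genes (vertical). The dashed line marks equal means, and the 70 chosen cells (red) lie at a smooth muscle mean of 3.09 to 4.79 and a fibroblast mean of 0.463 to 1.65, apart from the 35 Cd31- wells with the higher fibroblast mean (grey). A few of the 676 Endothelial wells (pale blue) reach the range of the chosen cells.

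The share of Cd31- wells that qualified differed between sorts. It was 16 of 42 wells (38.1%, exact 95% binomial interval 23.6 to 54.4%) in WT sort 1, 10 of 12 (83.3%, 51.6 to 97.9%) in WT sort 2, 31 of 40 (77.5%, 61.5 to 89.2%) in KO sort 1 and 13 of 14 (92.9%, 66.1 to 99.8%) in KO sort 2. The interval of WT sort 1 lay below the point values of the other 3 and overlapped the interval of WT sort 2. No test was made of these shares, since they come from the rule, and the intervals cover counting error only.

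The 4 smooth muscle genes of the rule, given as a description, made up 4.60, 4.90, 4.68 and 4.81% of all gene counts in the chosen cells and 0.101, 0.0679, 0.138 and 0.0739% in the Endothelial wells. Acta2, which encodes smooth muscle alpha-actin (chromosome 19, 34241090-34255590, minus strand, GRCm38), reached 32873, 32526, 33600 and 32096 CPM (counts per 1000000 gene counts of the sum). The 4 sums lay within a narrow band, and the Endothelial sums held 801, 541, 993 and 505 CPM. Myh11, the smooth muscle myosin heavy chain (chromosome 16, 14194535-14291372, minus strand), reached 4713, 5801, 5052 and 6143 CPM, Tagln (transgelin) 5619, 7778, 5279 and 6641 CPM and Cnn1 (calponin) 2844, 2942, 2895 and 3236 CPM. All 4 genes had a count in each of the 70 cells. Of the fibroblast genes of the rule, the type I collagen genes Col1a1 and Col1a2 also had a count in each of the 70 cells, at 211 to 562 CPM and 790 to 1081 CPM, whereas Dcn (decorin) lay at 0 to 51.6 CPM and Lum (lumican) at 0 to 7.72 CPM.

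To ask which genes set these cells apart from the cells that line the same vessels, the summed counts were compared with those of the Endothelial wells. Differences are log2 ratios, smooth muscle-like minus Endothelial, with their standard errors (SE) over 4 sums a class, from edgeR's quasi-likelihood fit over 11268 genes, and a gene was called at a Benjamini-Hochberg adjusted p under 0.05. The genes of the rule were left out of the calls. Of all tested genes, 1098 (9.74%) were called higher in the smooth muscle-like cells and 1553 (13.8%) were called lower, and the median difference over all genes was -0.12. Because sums of sorts rather than mice were compared, p-values measure the spread between these sums, which may be technical in part. The contractile list holds genes known to vary with the markers of the rule, so its direction is tied to the choice of the cells. A gene with no count in the chosen cells passed the filter on low counts through the Endothelial sums alone, so its direction was fixed. In the same way, a gene too low in the Endothelial sums to pass there did so through the smooth muscle-like sums. Its higher direction was then fixed, as for Notch3, Tnfrsf11b and 2210407C18Rik below.

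All 20 genes of a list of contractile apparatus genes beyond the rule passed the filter on low counts, 20 were called higher and none lower, beside the 9.74% called higher among all genes, and their median log2 difference was 4.44. In each of the 20 the lowest smooth muscle-like sum lay above the highest Endothelial sum, as in 1106 of all 11268 tested genes. Myl9, the regulatory light chain of smooth muscle myosin (chromosome 2, 156775420-156781658, plus strand), held 8319, 7716, 8028 and 7905 CPM against 116, 28.1, 195 and 83.2 CPM in the Endothelial sums, a log2 difference of 6.34 ± 0.51 (SE; adjusted p = 5.2e-06, edgeR). Tropomyosin Tpm2 followed at 2909, 3413, 2557 and 3749 CPM (log2 difference 6.41 ± 0.51) and the actin filament nucleator leiomodin Lmod1 at 781, 859, 553 and 703 CPM (6.35 ± 0.60). Both were found in every cell.

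Itga8, the integrin alpha-8 chain that binds matrix proteins such as fibronectin (chromosome 2, 12106632-12301922, minus strand), held 3074, 6144, 3313 and 5857 CPM in the chosen cells and 13.6 to 59.7 CPM in the Endothelial sums (log2 difference 6.94 ± 0.50). Here the 2 sums of sort 2 lay above both sums of sort 1. The smallest differences in the list were those of genes that ECs also express: Pdlim7 (2.17 ± 0.29), the myosin essential light chain Myl6 (2.41 ± 0.15) and vinculin Vcl (2.46 ± 0.20), with counts in 74.7, 99.6 and 69.2% of Endothelial wells. The intermediate filament gene Des (desmin) and the enteric actin gene Actg2 were at the other end of the list (log2 differences 7.67 ± 1.16 and 7.22 ± 0.76), and they were also the members found in the fewest cells, 30.0 and 55.7%. Reads of Actg2 can be shared with other actin genes of nearly the same sequence, and only reads that aligned to 1 place were counted.

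**Figure D2:**
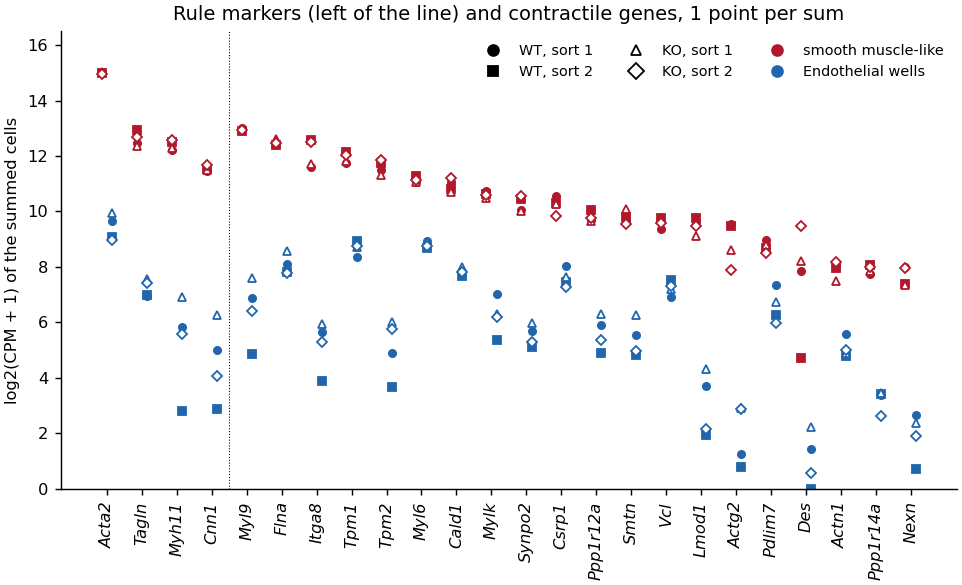
Levels of the rule markers (left of the dotted line) and of the 20 contractile genes in log2(CPM + 1), 1 point for each sum of 1 genotype and 1 sort. Smooth muscle-like sums (red) lie above the Endothelial sums (blue) for every gene drawn. Filled points are WT and open points KO.

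On a scale that divides by gene length (TPM, transcripts per 1000000, mean of the 4 sums), Acta2 was the most abundant of the genes with a known length at 56189 TPM, followed by Myl9 at 25890 TPM and the actin-severing protein gene Dstn (destrin) at 16926 TPM. Next came Tmsb4x at 15584 TPM, Mgp at 15476 TPM, Actb at 15189 TPM and Tagln at 11977 TPM. Dstn, Ogn, Fhl1 and Csrp2 were singled out after their values were seen. Ogn encodes osteoglycin, a small proteoglycan, and reached 5386 TPM. Its sums held 3727, 4157, 2853 and 3964 CPM against 5.29 to 101 CPM in the Endothelial sums, a log2 difference of 6.50 ± 0.78. Fhl1 and Csrp2, which encode LIM-domain proteins, stood at 3909 and 3724 TPM.

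The regulators of the contractile programme did not all move the same way. Of 14 listed transcription factors and Notch pathway genes, 13 passed the filter, 6 were called higher and 4 lower, with a median log2 difference of 1.03. Among all genes 9.74% were called higher and 13.8% lower. Myocd (chromosome 11, 65176561-65269989, minus strand) held 374, 341, 397 and 393 CPM in the chosen cells and 0.971 to 14.1 CPM in the Endothelial sums (log2 difference 6.02 ± 0.72, adjusted p = 9.7e-05, edgeR), and 95.7% of the cells had a count. The 4 sums differed little from each other. Srf was lower in level, at 30.7, 86.3, 28.4 and 54.0 CPM, and was called higher as well (3.16 ± 0.51). The Notch3 receptor, which arterial smooth muscle uses to receive signals from neighbouring cells, held 73.5, 44.3, 30.5 and 36.9 CPM and at most 1.25 CPM in the Endothelial sums (6.16 ± 1.04). The Notch target Heyl reached 400, 428, 497 and 319 CPM (5.41 ± 0.39).

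In the opposite direction, Mkl2, which encodes a myocardin-related Srf cofactor, held 29.5, 25.5, 25.2 and 6.14 CPM against 282 to 361 CPM in the Endothelial sums (log2 difference -3.75 ± 0.36). Klf4, a factor known to repress contractile genes when it is induced in smooth muscle, held 6.14 to 28.3 CPM against 141 to 233 CPM (-3.26 ± 0.44), and the Notch ligand gene Jag1 and the Notch target Hey2 were called lower too (-3.10 ± 0.50 and -2.19 ± 0.31). For Jag1 and Hey2 all smooth muscle-like sums lay below all Endothelial sums, as for 2306 of all 11268 tested genes. Mkl1 (1.03 ± 0.83), Mef2d (0.71 ± 0.49) and Gata6 (-1.42 ± 0.56) were not called.

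Because the called factors include Srf and Myocd, the RefSeq sequences before the annotated starts of the listed genes were read for the CArG box. Of 20 contractile genes 18 had a window of 250 bases in the GRCm38.p6 promoter table, and a CArG box lay in those of Myl9, Myl6 and Vcl, 3 of 18 or 16.7%, beside 1.62% of all 27025 genes. With up to 1 base of the A/T core changed to C or G the share was again 16.7%, beside 9.78% of all genes. The box reads the same on both strands. The window of Srf itself held 2 boxes, at 82 to 73 and 62 to 53 bases before the start, and that of Acta2 held 2 boxes with 1 changed core base, at 84 to 75 and 34 to 25 bases before the start. Cnn1, the only other smooth muscle marker of the rule with a window, had no match of either kind. A match of letters is a description and not evidence of binding. The 5 windows are shown because they are those of the contractile genes with a match, of Srf and of the marker Acta2, from 5′ to 3′ on the strand of the gene, with the boxes and those with 1 changed core base in capitals. They lie at chr19:34255374-34255623 (Acta2, minus strand), chr2:156775214-156775463 (Myl9, plus strand), chr10:128493010-128493259 (Myl6, minus strand), chr14:20929148-20929397 (Vcl, plus strand) and chr17:46556163-46556412 (Srf, minus strand).
Acta2: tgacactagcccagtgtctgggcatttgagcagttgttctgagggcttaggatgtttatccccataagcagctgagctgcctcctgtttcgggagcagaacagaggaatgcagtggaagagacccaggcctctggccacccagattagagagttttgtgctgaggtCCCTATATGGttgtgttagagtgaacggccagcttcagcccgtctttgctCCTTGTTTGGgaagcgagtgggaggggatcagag
Myl9: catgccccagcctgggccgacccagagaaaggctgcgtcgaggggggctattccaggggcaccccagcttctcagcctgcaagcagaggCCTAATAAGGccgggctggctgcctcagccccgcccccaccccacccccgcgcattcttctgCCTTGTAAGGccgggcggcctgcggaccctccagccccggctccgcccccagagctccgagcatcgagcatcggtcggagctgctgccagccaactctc
Myl6: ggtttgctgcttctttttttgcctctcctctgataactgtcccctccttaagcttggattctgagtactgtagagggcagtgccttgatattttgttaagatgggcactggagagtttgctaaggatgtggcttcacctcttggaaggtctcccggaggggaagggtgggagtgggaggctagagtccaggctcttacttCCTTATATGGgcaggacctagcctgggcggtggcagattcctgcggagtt
Vcl: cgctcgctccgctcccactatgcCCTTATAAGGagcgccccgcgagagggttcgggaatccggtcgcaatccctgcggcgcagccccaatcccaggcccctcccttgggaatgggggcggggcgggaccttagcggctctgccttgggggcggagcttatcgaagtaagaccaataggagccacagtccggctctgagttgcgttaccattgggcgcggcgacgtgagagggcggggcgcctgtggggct
Srf: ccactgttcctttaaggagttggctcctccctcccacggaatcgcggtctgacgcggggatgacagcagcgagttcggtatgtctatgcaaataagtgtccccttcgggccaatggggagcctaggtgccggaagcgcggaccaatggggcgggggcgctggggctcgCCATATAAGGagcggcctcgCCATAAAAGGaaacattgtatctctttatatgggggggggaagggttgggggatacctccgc

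Of 14 listed genes of the calcium and potassium channels and calcium stores that couple membrane voltage to contraction, 10 passed the filter, 6 were called higher and 1 lower, beside 9.74% called higher and 13.8% called lower among all genes, with a median log2 difference of 4.22. The large-conductance potassium channel was represented by its pore gene Kcnma1 at 62.6, 59.8, 78.5 and 62.6 CPM (log2 difference 7.41 ± 0.70) and by its smooth muscle subunit Kcnmb1 at 398, 285, 296 and 225 CPM (6.05 ± 0.66). Kcnmb1 had a count in each of the 70 cells. The L-type calcium channel genes Cacna1c and Cacnb2 differed by 6.08 ± 0.82 and 6.08 ± 0.98, and the calcium pump gene Atp2a2 by 2.39 ± 0.21. Orai1, a store-operated calcium channel gene, was called lower at 0 to 7.67 CPM (-3.31 ± 0.90), and this call was lost without 2 of the Endothelial sums, WT sort 1 or KO sort 2 (adjusted p = 0.0791 and 0.0570, edgeR) and with only the wells of at least 100000 counts (-3.12, adjusted p = 0.0559, edgeR). The setting of at least 100000 counts left 9, 5, 21 and 3 smooth muscle-like cells in the sums, here and below. Itpr1 was not called (1.04 ± 0.39), but it was called higher with DESeq2 (1.09, adjusted p = 0.0441) and with cells thinned to 20000 counts (1.31, adjusted p = 0.00222, edgeR). Phospholamban (Pln) had 1 count in the 70 cells, and Casq2, Trpc6 and Cacna1h had none.

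Of 17 listed genes of the receptors and the cyclic GMP pathway that receive vasoactive signals, 12 passed the filter, 10 were called higher and none lower, beside 9.74% called higher and 13.8% called lower among all genes, and their median log2 difference was 4.84. The 2 subunits of soluble guanylate cyclase, which is the receptor for nitric oxide released by ECs, were Gucy1a3 at 736, 944, 627 and 963 CPM (4.78 ± 0.33) and Gucy1b3 at 251, 179, 136 and 225 CPM (5.0 ± 0.55). Their downstream kinase Prkg1 (3.02 ± 0.56) and the cyclic GMP phosphodiesterase Pde5a (5.63 ± 0.76) were called higher too. Pde3a was not called, with 127 to 162 CPM in the chosen cells and 132 to 225 CPM in the Endothelial sums. Among the receptors, the alpha-1D adrenoceptor Adra1d (7.38 ± 1.37), the thromboxane receptor Tbxa2r (4.90 ± 0.81) and the purinergic receptor P2rx1 (4.60 ± 0.92) were called higher. Without the 13 wells named in the closing section, the Endothelial sums held at most 0.0109 CPM of Adra1d. Its direction was thus fixed by the filter. With only the wells of at least 100000 counts P2rx1 was not called (4.06, adjusted p = 0.0733, edgeR). The endothelin receptor gene Ednrb did not pass the filter, had no count in the chosen cells and was at least 90.9-fold lower over the floor of 3 counts. The other endothelin receptor gene, Ednra, (4.43 ± 1.28) lost its call without the smooth muscle-like sum of WT sort 1 or without the Endothelial sums of WT sort 1 or KO sort 2 (adjusted p between 0.0673 and 0.0825, edgeR). The regulator of G-protein signalling Rgs5 (chromosome 1, 169655501-169695813, plus strand) held 2536, 1221, 1531 and 1176 CPM against at most 44.2 CPM in the Endothelial sums (6.97 ± 1.25).

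Matrix genes divided the smooth muscle-like cells and the ECs less sharply. Of 13 elastic fibre genes, all of which passed the filter, 6 were called higher and 3 lower, with a median log2 difference of 0.46. The shares among all genes were 9.74% called higher and 13.8% called lower. Elastin (Eln) held 1106, 856, 1880 and 811 CPM against 661, 636, 896 and 626 CPM (0.81 ± 0.26, adjusted p = 0.0443, edgeR). The ranges overlapped, and the call was lost without the smooth muscle-like sum of KO sort 1 or without any Endothelial sum but that of KO sort 1 (adjusted p between 0.0993 and 0.122, edgeR), and with only the wells of at least 100000 counts (0.58, adjusted p = 0.361, edgeR). Ltbp1, which tethers latent TGF-beta to the matrix, held 1440, 809, 1130 and 1050 CPM (6.25 ± 0.50), and the microfibril gene Mfap4 held 667, 185, 417 and 274 CPM (5.38 ± 1.12). The cross-linking enzyme genes went apart, with Loxl1 called higher (4.66 ± 0.46) and Lox called lower (-1.13 ± 0.19). The fibulin gene Fbln2 held 0 to 32.0 CPM against 804 to 1587 CPM in the Endothelial sums (-5.88 ± 0.66). Fbln5 was called lower (-0.90 ± 0.24), and not without the Endothelial sum of KO sort 2 (adjusted p = 0.0708, edgeR).

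Of 21 genes of collagens and other matrix proteins, all of which passed the filter, 13 were called higher and 1 lower (median log2 difference 1.68). Among all genes 9.74% were called higher and 13.8% lower. The type VI collagen genes differed most, with Col6a2 at 238, 336, 327 and 323 CPM (6.10 ± 0.88) and Col6a1 at 230 to 402 CPM (5.50 ± 0.94). The fibrillar collagen Col3a1 (4.29 ± 0.52) and the basement membrane collagens Col18a1 (4.09 ± 0.26), Col4a2 (2.40 ± 0.19) and Col4a1 (1.59 ± 0.27) were called higher. Fibronectin (Fn1; chromosome 1, 71585520-71653200, minus strand) held 4124, 1381, 2470 and 3043 CPM against 729 to 1189 CPM (1.50 ± 0.30), and with only the wells of at least 100000 counts it was not called (1.06, adjusted p = 0.195, edgeR). The small proteoglycan gene Bgn and the calcification inhibitor gene Mgp were abundant in both classes: Bgn held 5102 to 7875 CPM against 7648 to 8548 CPM (-0.20 ± 0.16), and Mgp held 3023 to 7246 CPM against 5324 to 7713 CPM (-0.36 ± 0.27). Neither was called, although Mgp was called lower with the sort as a replicate block (-0.42, adjusted p = 0.0458, edgeR). Col8a1 was called lower (-2.96 ± 0.77) but not without the Endothelial sum of WT sort 1 or of KO sort 2 (adjusted p = 0.0504 and 0.0517, edgeR), nor with only the wells of at least 100000 counts (-2.72, adjusted p = 0.150, edgeR). Vcan (2.44 ± 0.71) lost its call without the smooth muscle-like sum of KO sort 1 or the Endothelial sums of WT sort 2 or KO sort 1 (adjusted p between 0.0580 and 0.0717, edgeR), with only the wells of at least 100000 counts (2.20, adjusted p = 0.0921, edgeR) and with thinned cells (1.71, adjusted p = 0.0729, edgeR).

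**Figure D3:**
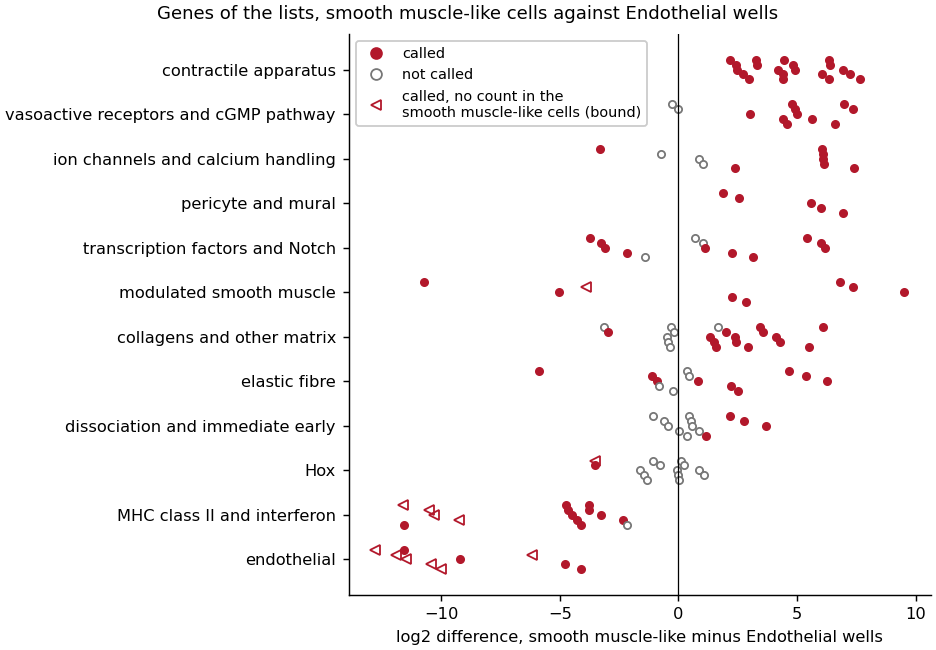
Log2 differences, smooth muscle-like minus Endothelial wells, for each tested gene of 12 lists (rows). Filled points were called by edgeR at an adjusted p under 0.05, open points were not, and triangles are called genes with no count in the 70 cells, drawn at the bound that a floor of 3 counts allows; the 20 contractile genes all lie to the right of 0 and the 10 endothelial genes all to the left.

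Genes linked to modulated smooth muscle moved in both directions. Of 13 listed genes 8 passed the filter, 5 were called higher and 3 lower, beside 9.74% called higher and 13.8% called lower among all genes. Postn (periostin) held 2452, 2222, 1883 and 2513 CPM (log2 difference 6.81 ± 0.81) and the matrix gene Tnc (tenascin C) 339, 136, 194 and 128 CPM (7.34 ± 0.88). Postn had a count in 97.1% of the cells. Tnfrsf11b, which encodes the secreted decoy receptor osteoprotegerin, held 329, 65.3, 41.2 and 62.6 CPM (9.52 ± 1.42) and came from 18 cells. Cd44 was called higher (2.25 ± 0.47), and Lgals3 (2.86 ± 0.86) lost its call without either WT smooth muscle-like sum or without any Endothelial sum but that of WT sort 1 (adjusted p between 0.0677 and 0.0892, edgeR), and with only the wells of at least 100000 counts (2.74, adjusted p = 0.168, edgeR). Ly6a, which encodes the stem cell antigen Sca-1, lay at 0, 1.11, 1.52 and 0 CPM against 733 to 3842 CPM in the Endothelial sums (-10.73 ± 0.86). Vcam1, an adhesion molecule for leukocytes, was at 0 to 89.2 CPM against 913 to 1319 CPM (-5.05 ± 0.90). Runx2, a bone transcription factor, had no count in the chosen cells and was at least 15-fold lower in them over the floor of 3 counts per group, and its call was lost with the replicate block (adjusted p = 0.0711, edgeR). The markers Spp1 and Tcf21 had no count either.

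Markers of other cell types were checked in the chosen cells. Of 8 pericyte and mural markers 5 passed the filter and 5 were called higher, beside the 9.74% called higher among all genes. Among the 5 were the potassium channel genes Abcc9 at 432, 418, 251 and 457 CPM (6.93 ± 1.12) and Kcnj8 at 55.3 to 77.9 CPM (5.60 ± 1.10) and the proteoglycan gene Cspg4 at 385 to 679 CPM (6.01 ± 0.80). Without 13 wells named in the closing section, Abcc9 and Kcnj8 held 0 CPM in every Endothelial sum but KO sort 1 (3.67 and 4.95 CPM). They passed the filter through the smooth muscle-like sums, so their direction was fixed. Pdgfrb and Mcam, also among the 5, held 27.2 to 60.8 and 98.7 to 137 CPM there. The other 3, Higd1b, Ndufa4l2 and Vtn, had no count in any of the 70 cells, which allows a share of cells with a count of up to 4.29%. All 10 endothelial markers passed the filter and were called lower, beside the 13.8% called lower among all genes. Of these, 6 had no count in the chosen cells and passed the filter through the Endothelial sums alone. The direction of this list is tied to the sort on Cd31 and to the rule on Cdh5. Its summed level was 61.0 to 129 CPM against 15741 to 18718 CPM in the Endothelial sums. Pecam1, which encodes the Cd31 antigen of the gate, held 6.14 to 20.6 CPM and had a count in 14.3% of the cells against 99.9% of the Endothelial wells, at median depths of 112510 and 159620 counts. The junction gene Esam had the highest residual level of the list at 28.3 to 80.8 CPM, in 41.4% of the cells (-4.09 ± 0.32).

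Immune markers were nearly absent: 6 of 7 had no count and Cd68 had a count in 2.86% of the cells, with a summed level of at most 1.79 CPM in any sum. Cd45+ cells had been depleted and the wells sorted as Cd45-, so this absence is tied to the sort. Of 9 Schwann, fat, mesothelial and red cell markers 7 had no count and the summed level was at most 3.59 CPM. Of 7 fibroblast markers beyond the rule 4 passed the filter, 1 was called higher, the actin-severing Gsn (1.05 ± 0.22), and 2 were called lower. Among all genes 9.74% were called higher and 13.8% lower. The rule left out the wells with the higher fibroblast mean, so the direction of this list is tied to the rule. Pi16 held 1 count in the chosen cells against 14089 in the Endothelial wells, which is 1043-fold lower in CPM with a 95% counting interval of 187 to 41197. With 1 count, Pi16 passed the filter through the Endothelial sums alone, so its direction was fixed. Serpinf1 (-3.03 ± 0.99) was called lower and lost its call when any of 7 of the 8 sums was left out, all but the smooth muscle-like sum of KO sort 1 (adjusted p between 0.0643 and 0.112, edgeR). Without that one the difference was -6.90 (adjusted p = 0.000126, edgeR), and with only the wells of at least 100000 counts it was -2.98 and not called (adjusted p = 0.0931, edgeR). Both directions of Pi16 and Serpinf1 turned when all Cd31- wells were summed with no marker rule (2.67 and 3.90). Pdgfra, a fibroblast receptor gene, had a count in 20% of the cells at 2.46 to 23.2 CPM. Cell cycle genes were rare, and Mki67, Top2a and Ccnb1 had no count.

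Antigen presentation and interferon-response genes were low in the smooth muscle-like cells. All 15 listed genes passed the filter and 14 were called lower, beside the 13.8% called lower among all genes, with a median log2 difference of -4.51. Cd74, H2-Aa, H2-Ab1, H2-Eb1 and Psmb8 each had at most 1 count in the chosen cells. They passed the filter through the Endothelial sums alone, so their direction was fixed. The class I chain gene H2-K1 held 185, 127, 125 and 141 CPM against 2320 to 4403 CPM (-4.30 ± 0.27, adjusted p = 9.0e-07, edgeR), and the class I partner B2m held 857 to 1765 CPM against 4292 to 10212 CPM (-2.32 ± 0.31). Among the class II genes, H2-Aa, H2-Ab1, H2-Eb1 and the invariant chain gene Cd74 had no count in any chosen cell, and were at least 1462-fold, 1275-fold, 607-fold and 3108-fold lower over the floor. The Endothelial sum of WT sort 1 held 3066 CPM of Cd74 beside 27.4 to 59.9 CPM in the other 3, and it was also the only one with counts of the fat cell gene Adipoq (85.2 CPM). Without it the 4 bounds were 199.9-fold, 167-fold, 76.8-fold and 115-fold. The calls of Igtp and Gbp3 were lost without that sum (adjusted p = 0.0884 and 0.0682, edgeR), and that of Igtp also without the smooth muscle-like sum of WT sort 2 (adjusted p = 0.0537, edgeR). Without the smooth muscle-like sum of WT sort 1 the differences of Igtp and Gbp3 moved from -4.67 and -4.12 to -7.95 and -7.92. The class I and II genes are a family of similar sequences, so single members are uncertain.

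Of 13 listed immediate early genes, which cells switch on soon after a stimulus such as tissue digestion, all passed the filter, 4 were called higher and none lower (median log2 difference 0.51), beside 9.74% called higher and 13.8% called lower among all genes. The summed level of the list was 8759, 7410, 9601 and 3805 CPM in the smooth muscle-like sums and 3590, 6509, 3142 and 2805 CPM in the Endothelial sums, so the ranges overlapped. The transcription factor gene Fos (chromosome 12, 85473890-85477273, plus strand) held 4188, 2384, 3915 and 1381 CPM against 422 to 1191 CPM (2.17 ± 0.38), Atf3 held 608, 574, 452 and 127 CPM against 22.5 to 43.7 CPM (3.68 ± 0.44) and Nr4a1 held 1015, 662, 1326 and 232 CPM against 71.9 to 202 CPM (2.76 ± 0.47). The sum of KO sort 2 was lowest for all 3. Egr1 (1.16 ± 0.36) lost its call when any of 6 of the 8 sums was left out, all but KO sort 2 of the smooth muscle-like and WT sort 2 of the Endothelial sums (adjusted p between 0.0575 and 0.107, edgeR). With only the wells of at least 100000 counts Fos (1.93, adjusted p = 0.122, edgeR), Atf3 (3.75, 0.0601) and Egr1 (0.92, 0.371) were not called. Only 9, 5, 21 and 3 smooth muscle-like cells remained under that setting, so these losses may reflect fewer cells as well as depth. Which of these applies was not tested. Jun, Junb and Ier2 were not called, and their sums in both classes overlapped.

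Positional and angiomotin genes were compared as well. Of 25 Hox genes 14 passed the filter, none was called higher and 2 were called lower, a share near the 13.8% called lower among all genes. They were Hoxa9 at 0 to 8.55 CPM against 51.7 to 75.3 CPM (-3.54 ± 0.59), and Hoxd3, which had no count and was at least 11.4-fold lower over the floor. The call of Hoxd3 was lost with the replicate block (adjusted p = 0.0960, edgeR). Amotl2, the gene deleted in the ECs of the KO mice (chromosome 9, 102716672-102733418, plus strand), held 37.9 and 18.8 CPM in the WT sums of the chosen cells and 37.5 and 117 CPM in the KO sums, with a count in 29 of the 70 cells. The Endothelial sums held 59.9 and 94.0 CPM in WT and 51.9 and 45.7 CPM in KO. The paper verified recombination in the ECs by the loss of an exon from the transcripts and by the reporter. Counts here cover the whole gene and cannot show the loss of an exon. The difference of Amotl2 between the cell classes was -0.17 ± 0.51 and not called, and its sign turned under several settings given in the closing section. Its relative Amotl1 was not called either (-0.61 ± 0.28), and Amot (-3.41 ± 1.07) lost its call when any of 7 of the 8 sums was left out, all but the smooth muscle-like sum of WT sort 1 (adjusted p between 0.0646 and 0.105, edgeR), with the replicate block (adjusted p = 0.0799, edgeR) and with only the wells of at least 100000 counts (adjusted p = 0.154, edgeR). Without the smooth muscle-like sum of WT sort 1 the difference of Amot was -5.56 (adjusted p = 0.00445, edgeR). The Cre reporter EYFP had no count in the 70 cells, while the Endothelial sums held 2.38 and 0.353 CPM in WT and 113 and 85.5 CPM in KO. Over all wells EYFP was at least 286-fold lower in the chosen cells, and at least 52.6-fold lower without the Endothelial sum of KO sort 1.

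Genes with the largest differences among the called genes that separated all sums were taken by a fixed rule, 15 higher and 10 lower. The largest log2 difference was that of 2210407C18Rik at 31.9, 35.4, 61.6 and 104 CPM (10.77 ± 1.07), which came from 15 cells. Beyond genes named above, the higher ones included the ankyrin gene Ank2 (8.74 ± 0.91), the orphan receptor gene Mrgprf (7.97 ± 0.96), the kinase gene Mark1 (7.76 ± 0.82), Fibin (7.36 ± 0.69), Map3k7cl (7.30 ± 1.37), the actin-binding gene Xirp1 (7.23 ± 1.20) and Lrrc17 (7.10 ± 0.60). Without the Endothelial sum of KO sort 1 the other 3 held at most 0.0250 CPM of Xirp1, and its fitted difference was 11.37. Fibin was found in 74.3% of the cells, at 509, 215, 173 and 335 CPM. The Endothelial sums held at most 0.100 CPM of 2210407C18Rik, 0.375 of Ank2 and 0.474 of Mrgprf. These passed the filter through the smooth muscle-like sums alone, so their direction was fixed. All of the 10 lower genes had no count in the chosen cells and passed the filter through the Endothelial sums alone. They were Egfl7, Clec14a, Adh7, Ramp2, Icam2, Cldn5, Cd74, Tek, Klk10 and Cd93, at least 2776-fold (Cd93) to 7140-fold (Egfl7) lower, and apart from Cd74 each had a count in at least 71.4% of Endothelial wells. The bound of Cd74 fell to 115-fold without the Endothelial sum of WT sort 1.

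Cells within the group differed most in a small set of genes. Variability was taken as the standard deviation of ln(1 + counts per 10000) over the 70 cells, minus the value expected for genes of the same mean. Rgs5 ranked the highest with an excess of 1.06, and Fos (0.94), Fn1 (0.63), Sparcl1 (0.62), Nr4a1 (0.62), Egr1 (0.56), Actg2 (0.54), Cyr61 (0.54), Des (0.53) and Atf3 (0.48) followed. Of the top 20 genes, 19 were again in the top 20 with all cells thinned to 20000 counts, 18 with only the 38 deep cells and 20 with values centred on the genotype and sort. Contractile genes lay on both sides of the expected value, from an excess of -0.27 for Myl6 to 0.14 for Synpo2, 0.53 for Des and 0.54 for Actg2. Of the rule markers, given as a description, Acta2 had an excess of -0.06 and Cnn1 of 0.03, and Acta2 ranged from 15486 to 54273 CPM over the cells with a median of 34643 CPM. Myl9 ranged from 2105 to 13056 CPM with a median of 8119 CPM. Acta2 was 1 of the 4 markers that chose the cells, so its range is a description. No well lay between the chosen cells and those left out for their fibroblast mean.

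Rgs5 split the cells most. It had a count in 42 of the 70 cells, ranged from 0 to 12937 CPM with a median of 98.5 CPM, and exceeded 1000 CPM in 22 cells. Of the cells of the 4 sums, 9, 5, 22 and 6 had a count, and the medians were 353, 201, 106 and 0 CPM, so high and low cells were found in every sort. Fn1 varied with it: the Spearman correlation of Rgs5 and Fn1 was 0.65 over the 70 cells, 0.64 after thinning, and 0.53, 0.83, 0.65 and 0.75 within the sums. Fn1 ranged from 0 to 22380 CPM with a median of 1764 CPM. Mgp ranged from 571 to 63391 CPM with a median of 3088 CPM and correlated with Fn1 at 0.44. These are correlations across cells that share libraries and depth and are given as descriptions.

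Other variable genes went separate ways. Sparcl1, a secreted matrix protein gene, had a count in 37 cells and reached 5019 CPM, and its correlation with Rgs5 was -0.02. With the microfibril gene Mfap4 it was negative, -0.44 over all cells and below 0 within each of the 4 sums. Actg2 was found in 39 cells with a highest value of 2657 CPM, and its correlation with Rgs5 was -0.03. Des (chromosome 1, 75360329-75368579, plus strand) was found in 21 cells, of which 7 exceeded 1000 CPM, and 49 cells had no count. In WT sort 2 the highest cell held 88.0 CPM of Des, and in the other 3 groups the highest cell held 2712 to 4540 CPM.

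**Figure D4:**
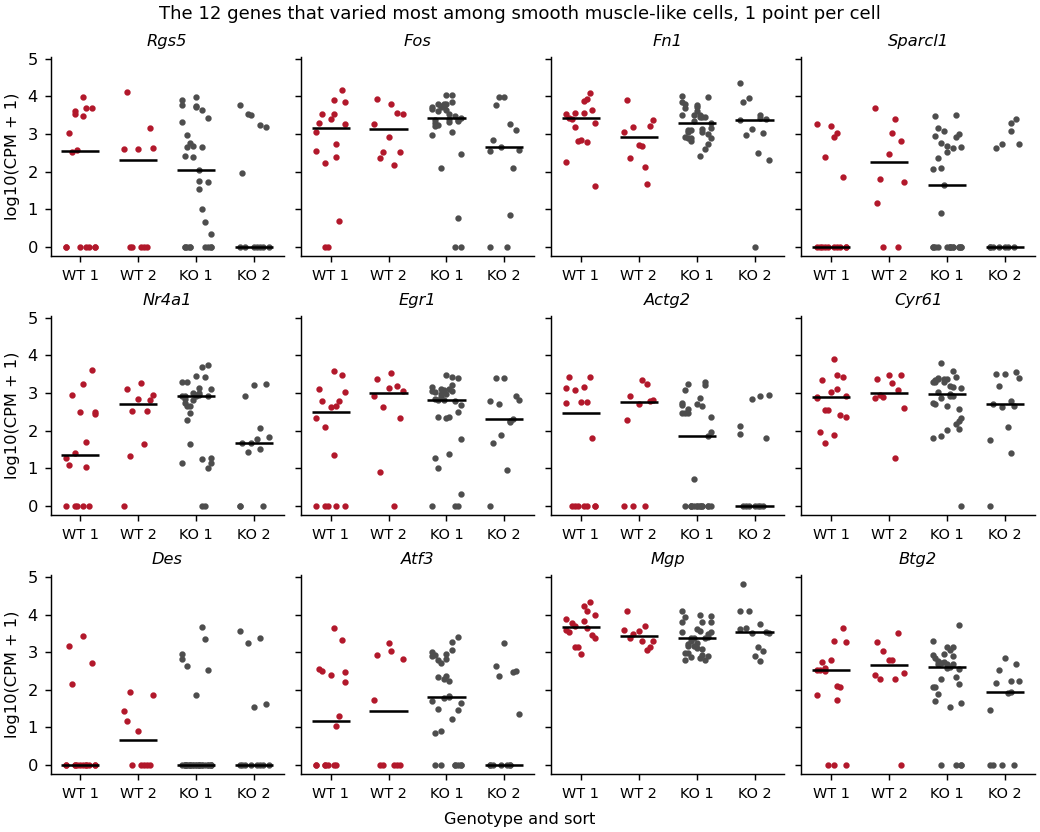
The 12 most variable genes in log10(CPM + 1), 1 point for each of the 70 cells, by genotype and sort, with a bar at the median of each. Points at 0 are cells without a count; Rgs5, Des and Actg2 each have cells at 0 and cells with counts in all 4 groups, while Mgp has a count in every cell.

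The immediate early genes formed the tightest block among the variable genes. Fos had a count in 64 cells and ranged up to 14482 CPM with a median of 1964 CPM, and Egr1 had a count in 60 cells with a median of 560 CPM. Fos correlated with Atf3 at 0.74 and with Egr1 at 0.71, and the 15 pairs among 6 immediate early genes of the top 20 had a median of 0.58 (0.35 to 0.74). The other 175 pairs of the top 20 had a median of 0.07 (-0.44 to 0.68). The highest of these was Egr1 with Btg2, and Btg2 also correlated with Fos at 0.67 and with Atf3 at 0.66. Btg2 is not on the immediate early list, so the contrast depends on which genes were listed. As a mean over the list of 13 genes, the immediate early level ran from 0.118 to 2.31 over the cells with an SD of 0.576, against an SD of 0.225 for the mean of the contractile list (1.73 to 2.99). Sample medians of the immediate early mean were 0.651, 1.04, 1.19 and 0.724, and cells at both ends occurred in every sort.

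List means were compared across the 70 cells by Spearman correlation, as descriptions. The contractile mean correlated with the elastic fibre mean at -0.32 and with the immediate early mean at -0.01. The contractile mean was nearly independent of depth, with a Spearman correlation of -0.06, whereas the elastic fibre mean was at 0.27.

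**Figure D5:**
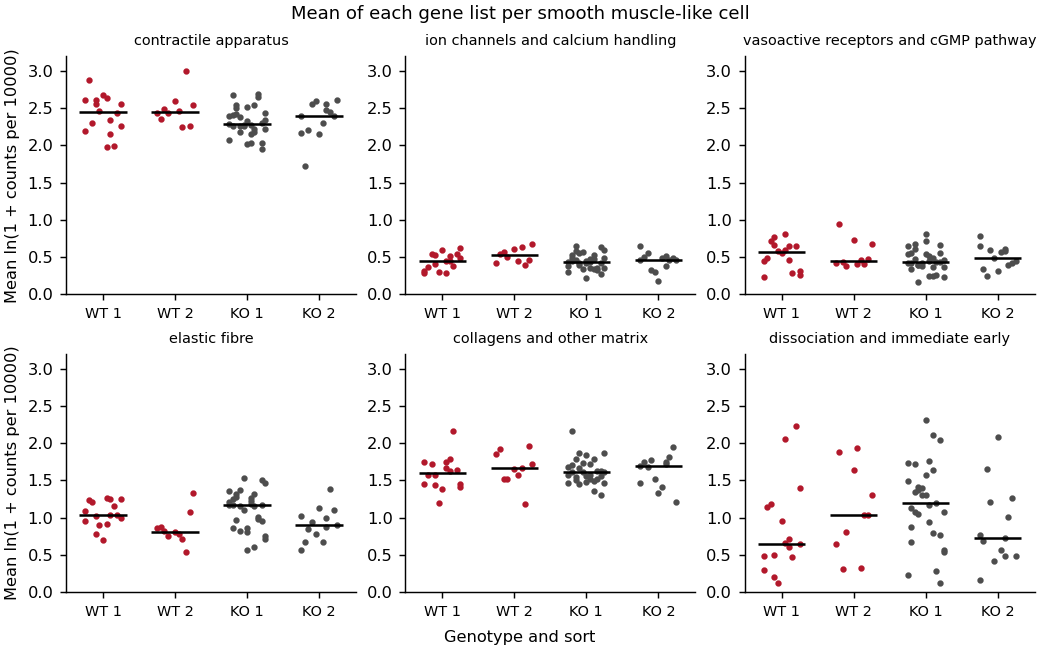
Mean ln(1 + counts per 10000) of 6 gene lists, 1 point for each of the 70 cells, by genotype and sort, with a bar at each median. The contractile means run from 1.73 to 2.99, and the immediate early means (0.118 to 2.31) are the most spread of the 6.

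No axis dominated the cells. On 500 variable genes, the first component held 4.66% of the variance and was set by 1 cell of WT sort 2, which scored 34.6 where the next cell scored 5.65. That cell had 21370 counts and 1948 genes, the fewest of the group, and a smooth muscle mean of 4.45. Without it, a choice made after the data were seen, the first component held 4.57% over 69 cells, with Fbln7, Rbp4, Igfbp4 and Rgs5 towards one end and Mcam, Sorbs2 and Sparcl1 towards the other.

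To ask whether the endothelial deletion was accompanied by a change in the neighbouring smooth muscle-like cells, the 2 KO sums were compared with the 2 WT sums. Of 8978 genes, 0 (0%) were called by the quasi-likelihood test of edgeR after Benjamini-Hochberg adjustment, 308 had an unadjusted p under 0.05, and the smallest adjusted p was 0.9997. With DESeq2, 11 genes (0.123%) were called, 5 of them with more counts in KO and 6 with fewer. With 2 sums a group and a biological coefficient of variation of 0.683, this comparison is a weak one. The median log2 difference, KO minus WT, was 0.03 over the 20 contractile genes, -0.18 over 14 vasoactive genes, 0.12 over 21 matrix genes and 0.46 over 13 elastic fibre genes, beside 0.01 over all genes. It was -0.75 over 6 genes of modulated smooth muscle, of which 1 was positive, 0.33 over 7 Hox genes and -0.09 over 13 immediate early genes. The rule markers differed by between -0.13 and 0.13. None of the genes in these lists was called.

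The genes that DESeq2 called, which are named here after their values were seen, rest on few cells. The 11 genes had counts in 3 to 35 cells with a median of 9, and the cell with the most counts held between 19.2 and 85.3% of the counts of the higher genotype. Pcsk5, a proprotein convertase gene, was the best covered, with 15.3 and 23.2 CPM in WT and 173 and 89.7 CPM in KO from 35 cells. A4galt, a glycosyltransferase gene, held 148 and 84.1 CPM in WT and 17.8 and 12.3 CPM in KO. The others included 9930021J03Rik, Angpt1, Ccdc157, Maml1, Sbspon, Xpnpep3, Zfp654 and Zfp867.

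The 2 sorts were compared in the same way. Of the 8978 genes 0 (0%) were called by the quasi-likelihood test of edgeR after Benjamini-Hochberg adjustment, 504 had an unadjusted p under 0.05, and DESeq2 called 16 (0.178%), 11 of them higher in sort 2. Itga8, named here after its values were seen, had a count in all 70 cells and was 1.00 ± 0.17 higher on the log2 scale in sort 2 (unadjusted p = 0.000256 and adjusted p = 0.874 by edgeR, adjusted p = 0.00165 by DESeq2). The other 15 genes included Hspa1b, Thbs1, Kcnip4, Ntrk2 and Socs3. The matrix gene Thbs1 held 306 and 43.6 CPM in sort 1 and 2.21 and 1.23 CPM in sort 2, from 7 cells.

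RNA content did not set the 2 cell classes apart detectably. The median number of genes per cell at a depth thinned to 20000 counts was 2898.5, 3302, 2729 and 3019 in the smooth muscle-like cells and 2940, 3676.5, 2577.5 and 3460 in the Endothelial wells. The mean difference was -176 genes and was positive in 1 of 4 sums (two-sided exact permutation test, p = 0.543, smallest possible p = 0.0286). Gene counts per spike-in count, a measure of RNA per cell, differed by -0.12 on the log2 scale and were higher in 2 of 4 sums (two-sided exact permutation test, p = 0.629).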

How the data were processed

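Counts of 1024 wells, 1 cell each, were taken as deposited. The authors aligned Smart-seq2 reads with STAR 2.7.7a to GRCm38 with the spike-in and EYFP sequences added, removed duplicate reads with Picard 2.22.0, and counted uniquely aligned reads per gene with HTSeq 0.9.1, per the methods and the submitters' processing notes; the annotation release is not given in the sources used here. Raw counts per gene were deposited, without normalization and without molecular identifiers, so counts are of reads rather than molecules and intervals cover counting error only. Of all counts in the table, 51.9% lay on 24422 genes, 1.25% on 92 spike-ins and 46.9% on the 5 summary lines of HTSeq; reads aligned to more than 1 place made up 32.0% of all counts. Spike-ins and summary lines were left out of totals and tests.

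The 70 cells were chosen by measured values, and the members and gene lists were chosen with earlier results of these data known; no list is independent evidence. Cells held 21370 to 879444 gene counts (median 112510). Counts of the cells of 1 genotype and 1 sort were summed, 4 sums a class, and tested with edgeR 4.0.16 (R 4.3.3; quasi-likelihood, TMM factors, Benjamini-Hochberg adjustment over all tested genes) without a block. DESeq2 1.42.0 was an alternative. Named genes were the 15 higher and 10 lower of largest log2 difference among called genes whose sums did not overlap, beside the listed genes. The replicate number is that of the sort in the labels, so smooth muscle-like and Endothelial sums of 1 genotype and number share a sort; their deviations from the class means correlated at 0.0854, 0.0196, 0.0748 and 0.0312, and the fit with the sort as a replicate block called 2293 genes. Wells were sorted as singlets and no doublet caller was run; no member wells held identical counts. Coordinates and gene lengths were taken from GENCODE M21 (GRCm38), in which 95.7% of symbols matched, and promoter windows from RefSeq (GRCm38.p6). The scripts were tested on simulated counts. Figures and cell statistics used Python 3.11.15, numpy 2.4.6, pandas 2.3.3, scipy 1.17.1, statsmodels 0.14.6 and matplotlib 3.10.9. Some genes that these rules select are not reported here.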

Additional observations from a re-analysis of the deposited data

Results flagged for a closer look

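Within the 4 sums of a class, a gap test (Dixon's) marked 1 sum as far from the other 3 in 9 cases, and chance marks about 1 in 20 groups. The number of groups examined is not given here, so the 9 cases cannot be set against that share. Among the smooth muscle-like sums these were Mkl2 in KO sort 2 (6.14 CPM against 25.2 to 29.5), Col6a2 in WT sort 1 (238 CPM against 323 to 336) and Abcc9 in KO sort 1 (251 CPM against 418 to 457). The median number of detected genes per cell without thinning was also far from the others in WT sort 2 (4608 against 3592 to 3741).

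Among the Endothelial sums they were Cd74 in WT sort 1 (3066 CPM), Fn1 in WT sort 1 (729 CPM), Eln in KO sort 1 (896 CPM), Vcam1 in KO sort 1 (913 CPM) and Atf3 in KO sort 2 (22.5 CPM). Each of these levels enters a difference given above, and the calls of Mkl2, Col6a2, Abcc9, Cd74, Fn1, Eln, Vcam1 and Atf3 were kept without the sum in question.

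Outside the chosen cells, 13 wells labelled Endothelial had a smooth muscle mean within the range of the 70 cells. They were 3, 1, 7 and 2 wells of the 4 sums, all 13 had a Pecam1 count and 5 had no Cdh5 count. Without them the Endothelial sums held 195 to 494 CPM of Acta2 rather than 505 to 993 CPM, and 6.33 to 23.4 CPM of Myl9 rather than 28.1 to 195 CPM. This setting was chosen after the data were seen, and 2663 genes were then called rather than 2651.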

How the results depend on the processing

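The number of genes called between the classes stayed within 1.5 times of 2651 under every setting run: 2293 with the replicate block, 2647 with DESeq2's size factors in edgeR, 2780 with no filter on low counts, 3235 with DESeq2, 2019 with wells of at least 100000 counts, 2398 with thinned cells, 2205 with all Cd31- wells, 2664 and 2663 with narrower Endothelial sets, and 2246 to 2993 without 1 sum. The comparison of KO with WT gave 0 calls with the replicate block, 1 with no filter, 11 with DESeq2 and 0 to 13 without 1 sum (7 without WT sort 1, 13 without WT sort 2, 5 without KO sort 1). The comparison of sorts gave 18 calls with no filter, 16 with DESeq2 and 0 to 49 without 1 sum (12 without WT sort 1, 49 without KO sort 1). The cause was not tested.

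Of 144 listed and named genes, the replicate block kept 140 calls, lost 3 and gained 1; wells of at least 100000 counts lost 12, all Cd31- wells lost 12, and leaving out 1 sum lost 2 to 9. Signs turned for Pi16 (2.67) and Serpinf1 (3.90) with all Cd31- wells, and for Amotl2 with deep wells (0.045), with all Cd31- wells (0.35) and without 1 sum (-0.91 to 0.091). The log2 difference in gene counts per spike-in count ran from -0.27 to 0.011 without 1 sort.

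Depth limits what can be said of rare genes: with 814086 counts in the smallest sum, a gene seen in a few cells rests on those cells, and no count in 70 cells allows a share of up to 4.29% of such cells with a count, which says nothing of cells that express the gene below detection.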
